A study of Mus musculus with 8 samples.

Results

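The genes described here are Stra8 and the core of the retinoic acid pathway in mouse embryonic stem cells. They were taken by symbol from a table of 16940 genes, and 9 were named: Stra8, the receptors Rara, Rarb, Rarg and Rxra, the enzymes Dhrs3 and Cyp26a1, and the binding proteins Crabp1 and Crabp2. Of these, 8 had a row and all 8 passed the filter on low values. Cyp26a1 was not analysed here beyond its promoter sequence. Stra8 was selected on measured values, its low normalized counts with mutated CTCF in these libraries, so its levels and fold changes are given as a description and no test is reported for it. The 7 other members were tested. They too were chosen with earlier results of these data known, so their p-values describe these libraries and are no independent support.

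Retinoic acid is made from vitamin A and binds the nuclear receptors RARα, RARβ and RARγ, which sit on DNA as partners of RXR proteins. The receptors bind paired hexamers in regulatory DNA and, with ligand, activate genes such as Rarb and Cyp26a1, so the pathway feeds back on its own receptor and on its own degradation. Stra8 is named for its induction by retinoic acid and is best known for its role at the start of meiosis in germ cells. In embryonic stem cells the pathway is known for driving exit from the pluripotent state.

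The cells were of the E14 line, grown on gelatin in serum-free medium with LIF, the inhibitors PD0325901 and CHIR99021, and the supplements N2 and B27. All 8 libraries came from cells whose own CTCF, a DNA-binding protein that organises chromosome loops, carries an auxin-inducible degron. Addition of the auxin IAA leads to degradation of such a tagged protein, which a measurement of RNA does not show. The 4 groups held 2 libraries each: a control overexpression line without IAA (called untreated below), the same control given IAA for 12 h, a line overexpressing wild-type CTCF with IAA for 12 h, and a line overexpressing mutated CTCF with IAA for 12 h. The mutation, the promoter of the transgenes and the number of clones behind each line were not given in the sources used here. Each CTCF form stands in a line of its own with no untreated libraries here, so an effect of the form and a difference between lines or clones cannot be told apart; "with mutated CTCF" and like phrases below name the line. New RNA was labelled with 400 µM 4-thiouridine for 15 min and captured, so the values follow transcription in that window rather than the RNA stock (transient transcriptome sequencing, TT-seq). The labels do not name separate cultures behind the 2 replicates, so the p-values measure the spread between libraries, which may be technical.

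The values are normalized read counts, in which the counts of each library were divided by one factor. The libraries held 15671114 to 21561141 reads over the listed genes. All 10 markers of naive embryonic stem cells had rows, and their summed normalized count was 55393 to 66365 per library, lowest in the untreated group. With IAA, however, 2 of the 10 were called higher and 3 lower (all genes: 19.4% and 18.4%). None of 6 fibroblast markers had a row. Neural progenitor markers had rows for 2 of 6 genes and summed to 156 to 284, lowest in the untreated group and highest with mutated CTCF. That sum is mostly Nes; Pax6, under the filter on low values, had its lowest group mean with mutated CTCF (4.53) and its highest with wild-type CTCF (15.5). Primitive endoderm markers had rows for 4 of 6 genes and summed to 195 to 331, lowest in the untreated group, with the highest single library in the IAA-treated control. With IAA 2 of the 4 were called higher (all genes: 19.4%), and Gata6 was called lower (-0.59; limma, adjusted p = 0.024), as were 18.4% of all genes. All 6 germ cell markers had rows and summed to 2680 to 3515, with both libraries of mutated CTCF lowest. Tex11 and Dazl make up most of that sum. For mutated against wild-type CTCF 3 germ cell markers were called higher (Mael, Ddx4 and Sycp3) and 1 lower (Dazl). Of all genes, 16.3% were higher and 18.4% lower in that comparison. The part of these shifts in the results on retinoic acid genes was not tested. In bulk libraries, fewer cells of a type and less new RNA per cell cannot be told apart.

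The promoter sequences of the pathway's genes differ in the element that the receptors are best known to bind, 2 receptor hexamers in the same direction with 5 bases between them. The hexamer AGGTCA and its variants AGTTCA as well as GGGTCA, plus the variant GGTTCA, were searched on both strands in the 250 bases before each RefSeq gene start (build GRCm38.p6). Such a repeat stood in 29 of 32851 promoters, or 0.0883%, and in 2 of the 15 promoters matched to 8 of the 9 named genes: one of Rarb and the one of Cyp26a1. No Stra8 repeat of this kind was found, but its promoter held 2 single AGGTCA hexamers, and 9.75% of all promoters held at least 2 hexamers. The stretches of 30 bases around these letters are shown because Rarb is the member whose values ran closest to those of Stra8 below. Capitals mark the hexamers and the bases between paired ones; each line is read 5′ to 3′ on the gene's strand.
Stra8, chr6:34920742-34920771, plus strand, hexamer from 194 to 189 bases before the RefSeq start: gatggggtgaaaAGGTCAtcttgctccttc
Stra8, chr6:34920898-34920927, plus strand, hexamer from 38 to 33 bases before the start: gcctggggtaccAGGTCAgttttttacctg
Rarb, chr14:16575506-16575535, minus strand, repeat from 53 to 37 bases before the start: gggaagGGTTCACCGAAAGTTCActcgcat
Cyp26a1, chr19:37697770-37697799, plus strand, repeat from 32 to 16 bases before the start, with the hexamers on the opposite strand: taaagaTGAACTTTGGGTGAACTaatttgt

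All 4 stretches overlap an exon of the same gene in GENCODE M21, where some transcripts start before the RefSeq ones. A match of letters is a description of the sequence and not a bound site. The windows of the other matched genes held no repeat of this kind, and for Crabp2 no promoter was matched. None of the 10 promoters matched to the list of responsive genes described below held one either.

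Stra8 (ENSMUSG00000029848.11, chr6:34920163-34939344, plus strand) was transcribed in all 8 libraries; gene positions here and below are those of GENCODE M21 on GRCm38. Its normalized counts were 365.3 and 396.5 in the untreated libraries, 902.9 and 908.5 in the IAA-treated control, 426.6 and 409.7 under wild-type CTCF, and 235.1 and 220.5 under mutated CTCF. The 4 groups did not overlap, and the order from low to high was mutated CTCF, untreated, wild-type CTCF and IAA-treated control. The untreated and wild-type groups were neighbours in that order, at 381 ± 22 and 418 ± 12 (SD, n = 2 each), and the gap between them was of the size of that spread. The other steps of the order were larger than the spread. By the step of each library, the lowest values stood for 225 and 223 reads and the highest for 758 and 826. Mutated replicate 2 has a step of 0.989, too near 1 to check its read numbers here and below.

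On the log2 scale Stra8 was 1.25 higher (SE 0.08) with IAA than without it in the control line, which is 2.38-fold. With IAA present, it was lower in the wild-type CTCF line than in the control, with a log2 difference of -1.11 (SE 0.08). In the mutated CTCF line the difference from the same control was -1.99 (SE 0.08), or 3.97-fold lower. Those 2 differences share the IAA-treated control libraries. Mutated against wild-type CTCF gave -0.87, and mutated CTCF against the untreated control -0.74, while wild-type CTCF against untreated gave 0.14. Stra8 with wild-type CTCF thus lay near the untreated level, and with mutated CTCF below it.

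**Figure D1:**
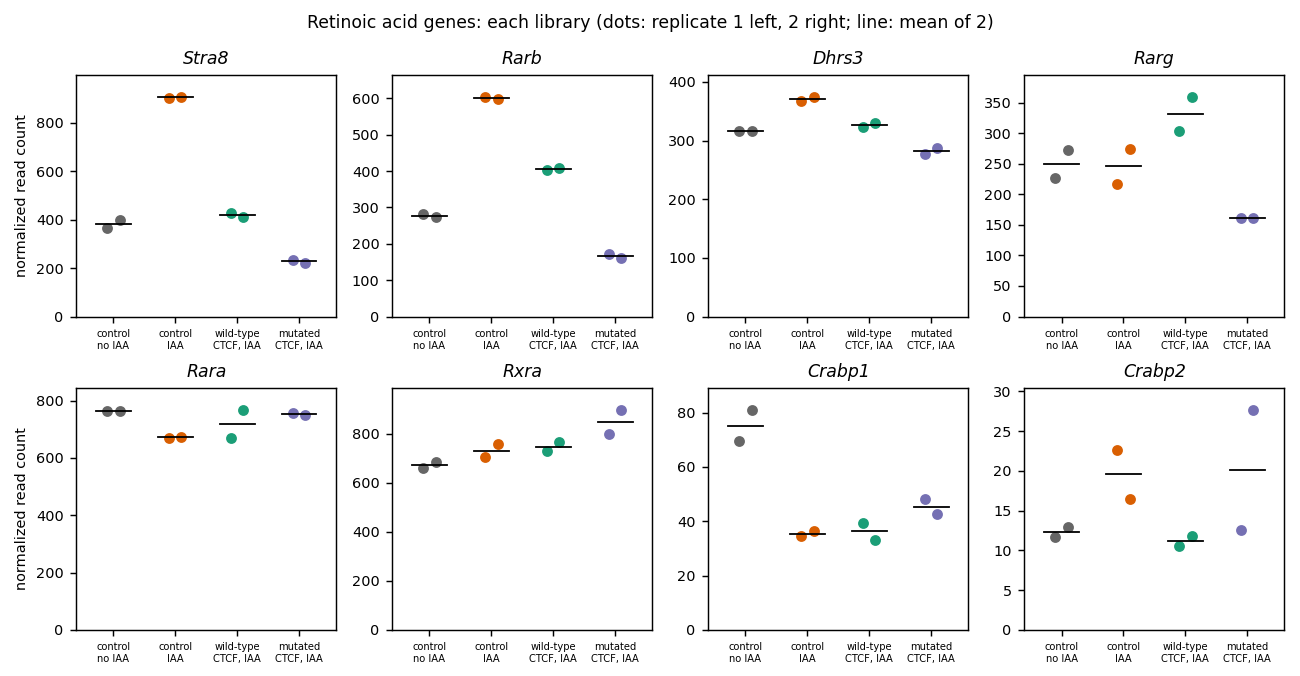
Normalized read count (vertical axis, from 0) of each of the 8 measured genes in each library; dots are single libraries, replicate 1 left and 2 right, and the line is the mean of 2. Stra8 and Rarb were highest in both IAA-treated control libraries (902.9 and 908.5; 605.1 and 597.2) and lowest with mutated CTCF, as was Dhrs3 over a narrower range, while the other 5 genes followed different orders.

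Rarb (ENSMUSG00000017491.9, chr14:16430839-16819156, minus strand) encodes RARβ, the receptor whose own promoter responds to retinoic acid through the repeat shown above. Its normalized counts were 282.5 and 272.4 untreated, 605.1 and 597.2 in the IAA-treated control, 403.0 and 407.6 under wild-type CTCF, and 171.3 and 160.2 under mutated CTCF. The groups did not overlap and stood in the same order as those of Stra8. Rarb rose with IAA by 1.11 (log2, SE 0.09; limma, adjusted p = 1.0e-13), or 2.16-fold. It was lower than in the IAA-treated control with both CTCF forms, at log2 differences of -0.57 for wild type (adjusted p = 2.5e-06) and -1.85 for mutated CTCF (adjusted p = 4.8e-20).

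Set directly against each other, the CTCF forms differed by -1.29 for Rarb (mutated minus wild type; SE 0.09; adjusted p = 3.2e-15), with both mutated libraries below both wild-type libraries. Rarb with wild-type CTCF was past the threshold against the untreated control, at 0.55 (adjusted p = 2.3e-06). With mutated CTCF it was below that control, at -0.74 (adjusted p = 5.2e-09). No left-out library and no other setting ended any of these 6 calls. Rarb shares 4624 bases, 1.19% of its length, with Top2b on the opposite strand, and the strand setting of the counting was not given. Top2b, a DNA topoisomerase, had counts of 2573 to 2900 in all libraries and passed the test in none of the 4 comparisons among IAA and the CTCF forms, but was called lower with mutated CTCF than untreated (-0.12; adjusted p = 0.018), beside -0.74 for Rarb.

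Rarg (ENSMUSG00000001288.15, chr15:102234938-102257517, minus strand) encodes RARγ, a receptor long studied in embryonal and embryonic stem cells. It did not follow Stra8 with IAA. The libraries had normalized counts of 227.4 and 272.4 untreated, 218.0 and 273.9 in the IAA-treated control, 303.4 and 360.5 under wild-type CTCF, and 160.9 and 161.1 under mutated CTCF. The untreated and IAA-treated control libraries overlapped, both wild-type libraries stood above every control library, and both mutated libraries stood below them. The IAA comparison gave -0.03 (SE 0.11; adjusted p = 0.88).

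Rarg was higher in the wild-type CTCF line than in the IAA-treated control, at 0.44 (SE 0.11; adjusted p = 0.0028), and lower with mutated CTCF, at -0.60 (adjusted p = 5.1e-05). The difference between the CTCF forms was -1.03 (adjusted p = 1.3e-09), a count 2.05-fold lower with the mutated form. Where a library is left out, its group holds 1 library, which is assumed to vary like the other groups. The higher value with wild-type CTCF was lost without IAA-treated control replicate 1 (0.27; adjusted p = 0.14) or wild-type replicate 2 (0.31; adjusted p = 0.073), and without the mean-variance trend (adjusted p = 0.11), whereas the lower value with mutated CTCF and the difference between the forms passed the test in every setting run. Against the untreated control, wild-type CTCF gave 0.41 (adjusted p = 0.0032) and mutated CTCF -0.62 (adjusted p = 2.1e-05); the first was lost without untreated replicate 1 (0.28; adjusted p = 0.15) or wild-type replicate 2 (0.28; adjusted p = 0.078), and without the trend (adjusted p = 0.092).

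Rara (ENSMUSG00000037992.16, chr11:98927818-98974942, plus strand), which encodes RARα, the broadly expressed receptor, kept within 1.14-fold over the group means. Normalized counts of Rara were 764.0 and 763.8 untreated, 670.6 and 674.2 in the IAA-treated control, 671.4 and 768.1 under wild-type CTCF, and 755.4 and 748.4 under mutated CTCF. It fell with IAA by 0.18 (SE 0.07; adjusted p = 0.025), the direction opposite to Stra8 and Rarb. Leaving out any one of the 4 libraries of that comparison left the difference between -0.18 and -0.19 but no longer past the threshold (adjusted p from 0.083 to 0.12), as did leaving out the trend (adjusted p = 0.11). The CTCF forms gave 0.09 and 0.16 against the IAA-treated control (adjusted p = 0.29 and 0.055), and the direct difference was 0.07 (adjusted p = 0.47). The value of 0.16 with mutated CTCF was past the threshold with the replicate block (adjusted p = 0.036), with a minimum mean of 50 (adjusted p = 0.047) and without either wild-type library (adjusted p = 0.036 and 0.037).

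Rxra (ENSMUSG00000015846.15, chr2:27676440-27762957, plus strand) encodes the partner that RAR proteins need to bind DNA. Normalized counts of Rxra were 662.0 and 685.3 untreated, 705.2 and 757.8 in the IAA-treated control, 730.0 and 766.0 under wild-type CTCF, and 799.3 and 898.6 under mutated CTCF. Both mutated libraries were above the other 6. Rxra was higher with mutated CTCF than in the IAA-treated control by 0.21 (SE 0.07; adjusted p = 0.010) and than with wild-type CTCF by 0.18 (adjusted p = 0.031). Both calls were lost without mutated replicate 2, at 0.13 (adjusted p = 0.25) and 0.096 (adjusted p = 0.39). The first was also lost without IAA-treated control replicate 1 (0.16; adjusted p = 0.15), and the second without wild-type replicate 1 (0.15; adjusted p = 0.15) or with only the groups compared (adjusted p = 0.065). Without the trend neither was called (adjusted p = 0.10 and 0.15). The difference of mutated CTCF from the untreated control, 0.33 (adjusted p = 9.2e-05), was called in every setting run.

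Dhrs3 (ENSMUSG00000066026.14, chr4:144892827-144928209, plus strand) encodes an enzyme that turns retinaldehyde back into retinol and is itself induced by retinoic acid. Its normalized counts were 316.8 and 316.4 untreated, 368.1 and 375.1 in the IAA-treated control, 322.6 and 329.5 under wild-type CTCF, and 277.9 and 286.7 under mutated CTCF. The groups stood in the same order as those of Stra8 and did not overlap, over a range of 1.32-fold. Dhrs3 was higher with IAA by 0.23 (SE 0.09; adjusted p = 0.033) and lower with mutated CTCF than in that control, at -0.40 (SE 0.09; adjusted p = 3.7e-04).

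The IAA call of Dhrs3 was lost without any one of the 4 libraries (0.22 to 0.24; adjusted p from 0.083 to 0.13) and after scaling the libraries to equal totals (0.18; adjusted p = 0.073). The value for wild-type CTCF against the IAA-treated control was -0.19 (adjusted p = 0.094), and that for mutated against wild-type CTCF -0.21 (adjusted p = 0.060). Both of those passed the threshold after rescaling by median of ratios, at -0.24 (adjusted p = 0.017) and -0.20 (adjusted p = 0.041), and also with equal totals (adjusted p = 0.035 and 0.039) and without the trend (adjusted p = 0.046 and 0.029). With the replicate block the difference between the CTCF forms was past the threshold as well (-0.21; adjusted p = 0.042), also together with that rescaling (-0.20; adjusted p = 0.043).

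Crabp1 (ENSMUSG00000032291.8, chr9:54764748-54773110, plus strand) encodes a cytoplasmic protein that binds retinoic acid and hands it to degradation, and it went the other way. Normalized counts of Crabp1 were 69.4 and 81.0 untreated, 34.5 and 36.3 in the IAA-treated control, 39.3 and 33.2 under wild-type CTCF, and 48.1 and 42.5 under mutated CTCF. Every library with IAA lay below both untreated ones. Crabp1 fell with IAA by 1.06 (SE 0.21; adjusted p = 9.1e-05), or 2.09-fold, and the call held without any one library. Neither CTCF form passed the test against the IAA-treated control (0.03 and 0.34; adjusted p = 0.94 and 0.22), and mutated against wild-type CTCF gave 0.32 (adjusted p = 0.26). Against the untreated control the wild-type and mutated lines gave -1.03 (adjusted p = 1.2e-04) and -0.72 (adjusted p = 0.0063). The latter was lost without untreated replicate 2 (-0.61; adjusted p = 0.096) or mutated replicate 2 (-0.63; adjusted p = 0.061).

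Crabp2 (ENSMUSG00000004885.5, chr3:87948666-87953376, plus strand), the binding protein that carries retinoic acid to the receptors, was near the depth limit. Its libraries had normalized counts of 11.7 and 12.9 untreated, 22.6 and 16.5 in the IAA-treated control, 10.5 and 11.8 under wild-type CTCF, and 12.5 and 27.7 under mutated CTCF. The reads behind these values numbered 11 to 28 per library, and the libraries of mutated CTCF lay far apart. No comparison passed the test, with IAA at 0.61 (SE 0.36; adjusted p = 0.19) and mutated against wild-type CTCF at 0.70 (adjusted p = 0.13). Without mutated replicate 1, whose value was the lower, the latter was 1.24 (adjusted p = 0.021). That value sets 1 mutated library of 28 reads against 2 others, with its spread taken from the other groups, and nothing is read from it.

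**Figure D2:**
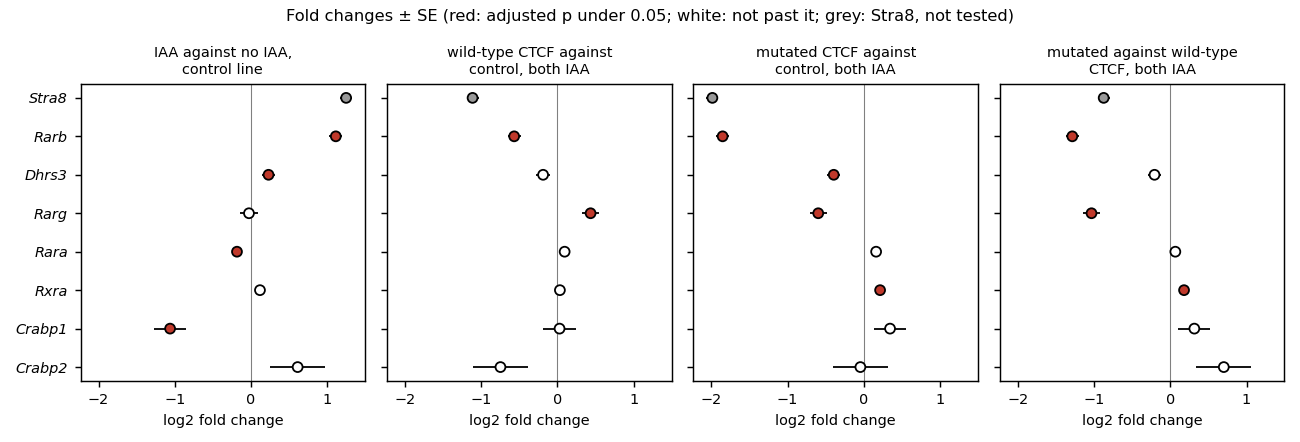
Log2 fold change with its standard error (horizontal axis) of the 8 genes in 4 comparisons; red dots passed an adjusted p of 0.05, white dots did not, and Stra8, in grey, was not tested. Rarb had the sign of Stra8 in each panel, with a smaller difference for wild-type CTCF (-0.57 beside -1.11), Rarg moved with the CTCF forms (0.44 and -0.60) but not with IAA (-0.03), and Crabp1 moved with IAA only among these panels (-1.06).

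Counted over the 7 members other than Stra8, IAA changed 4 (Rarb and Dhrs3 higher, Rara and Crabp1 lower), while 37.7% of all 15818 genes tested passed in that comparison. For wild-type CTCF against the IAA-treated control 2 were called (Rarg higher, Rarb lower), against 31.6% of all genes. For mutated CTCF against the same control the count was 4 (Rxra higher; Rarb, Dhrs3 and Rarg lower), against 34.3%. For the mutated against the wild-type form it was 3 (Rxra higher, Rarb and Rarg lower), against 34.7%. Against the untreated control, 3 were called for wild-type and 4 for mutated CTCF, with 43.2% and 37.8% of all genes. With 7 genes and backgrounds of this size, nothing particular to the pathway is read from these counts. The median log2 fold change of the 7 members was 0.12 with IAA and 0.07 for mutated against wild-type CTCF, beside -0.00165 and -0.00868 over all genes tested.

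The question of whether Stra8 moved with the other retinoic acid genes is taken gene by gene. The IAA comparison and the comparison of the CTCF forms share no library. Of the 7 members, Rarb alone was called higher in the first and lower in the second, while 970 of 15818 genes (6.13%) were. Dhrs3 had values of the same signs, 0.23 and -0.21, with the second not past the threshold. It joined Rarb with both calls after median-of-ratios rescaling, with the replicate block, with both together and without the mean-variance trend. Rarg shared with Stra8 only the second of these differences, and Rara, Rxra, Crabp1 and Crabp2 shared neither as a call.

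Likeness to Stra8 was measured as the root mean square difference between centred log2 values over the 8 libraries, in log2 units, for the other 15817 genes tested. Rarb ranked 2 with a difference of 0.21, just behind Cap2 (0.21), which encodes an actin-binding protein. A gene with no change at all would be 0.71 from Stra8, and 30.6% of genes were as close as that or closer. Dhrs3 ranked 761 (0.57, the closest 4.81% of genes) and Rarg 1554 (0.63, the closest 9.82%). Rara ranked 9858, Rxra 10177, Crabp2 11127 and Crabp1 14971, each farther from Stra8 than a flat profile. Rarb kept rank 2 under every pseudocount, filter and scaling tried. Likeness over these libraries is a description of 4 groups of 2 and carries no test.

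The 5 genes most alike with a mean of at least 50 were Cap2, Rarb, the lincRNA Gm38811, Zbtb16 and Col9a2. Zbtb16 encodes a zinc-finger repressor known from a fusion with RARα in leukaemia, and Col9a2 a collagen chain of cartilage. Cap2 had group means of 269 untreated, 519 in the IAA-treated control, 319 under wild-type CTCF, and 178 under mutated CTCF. Zbtb16 had 69.7, 157, 95.1 and 64.7 in the same order. They lie on chromosomes 13, 6, 9 and 4 besides Rarb's 14, and Gm38811 at chr6:51694309-51711081 is more distant from Stra8 than the neighbours described below. They were found by this likeness, so their values are no further evidence.

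**Figure D3:**
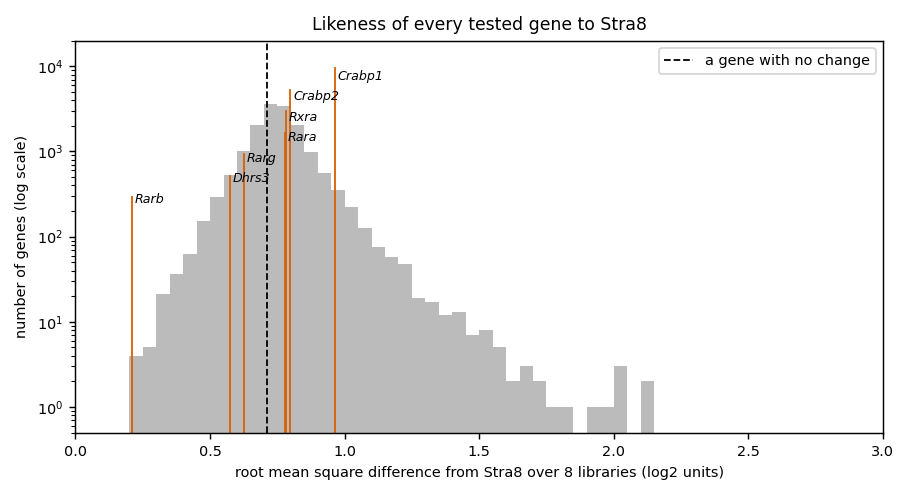
Number of tested genes (vertical axis, log scale) by root mean square difference from Stra8 over the 8 libraries (horizontal axis, log2 units); orange lines mark members, with line heights staggered only to fit the names, and the dashed line a gene with no change. Rarb stood at 0.21 on the far left, Dhrs3 and Rarg left of the dashed line at 0.71, and the other 4 members right of it.

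A list of 20 genes known to respond to retinoic acid outside the members was compiled with earlier results of these data known. It had 15 tested members. These include Rarres1, which passed the filter on low values only through its higher groups, so counts without it are given below. IAA raised 11 of the 15 and lowered 2, while 19.4% of all genes were raised and 18.4% lowered. The median log2 fold change of the list was 0.44, beside -0.00165 over all genes tested. With mutated CTCF 11 were lower and 1 higher than in the IAA-treated control (all genes: 12.4% lower and 22.0% higher), with a list median of -0.53 beside 0.0551. Between the forms, mutated minus wild type, 8 were lower and 1 higher (all genes: 18.4% and 16.3%), with a median of -0.38 beside -0.00868. Wild-type CTCF against the IAA-treated control gave 4 lower and 1 higher (of all 15818 genes: 1584 lower and 3407 higher). The list median in that comparison was -0.13, beside 0.0566.

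Cdx1, a homeobox gene of posterior identity and a known direct target of retinoic acid receptors, was called in the same directions as Rarb in the 4 comparisons among IAA and the CTCF forms. Its normalized counts were 235.7 and 252.6 untreated, 708.7 and 752.3 in the IAA-treated control, 584.0 and 606.6 under wild-type CTCF, and 237.2 and 276.8 under mutated CTCF. It rose by 1.58 with IAA (SE 0.08; adjusted p = 6.2e-19) and was lower with mutated than with wild-type CTCF, at -1.21 (adjusted p = 6.0e-15). Its lower value in the wild-type CTCF line than in the IAA-treated control, -0.29 (adjusted p = 0.0062), was not past the threshold without IAA-treated control replicate 2 (-0.25; adjusted p = 0.086) or without the trend (adjusted p = 0.080). With mutated CTCF its libraries overlapped the untreated ones, whereas those of Stra8 and Rarb lay below them.

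Ret, a receptor tyrosine kinase, rose by 1.37 with IAA (adjusted p = 7.1e-04) from 11.7 and 12.1 to 25.0 and 41.8. Its lower value with mutated CTCF than in that control, -1.34 (adjusted p = 0.0011), was not past the threshold without IAA-treated control replicate 2 (-0.98; adjusted p = 0.061). Rarres1, a gene named as a retinoic acid receptor responder, had counts of 3.34 and 4.31 untreated, 17.9 and 22.0 in the IAA-treated control, 14.0 and 16.1 under wild-type CTCF, and 8.36 and 8.90 under mutated CTCF. It passed the filter on low values only through its 2 higher groups, so no test of it is given. Without it, 10 of 14 list genes were higher with IAA and 10 lower with mutated CTCF than in that control. For mutated against wild-type CTCF, 8 of the 14 were lower and 1 higher. The list medians above include Rarres1.

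Not every responsive gene had the Stra8 order. Meis2, a homeobox cofactor chosen here after its values were seen, had counts of 4996 and 5121 untreated, 5938 and 6192 in the IAA-treated control, 8322 and 8254 under wild-type CTCF, and 3520 and 3595 under mutated CTCF. Against the IAA-treated control it was higher with wild-type CTCF by 0.45 (adjusted p = 2.0e-13) and lower with mutated CTCF, at -0.77 (adjusted p = 2.0e-20), the same pair of directions as Rarg. Tgm2, a transglutaminase chosen in the same way, ran opposite to Stra8. Its counts were 203.9 and 225.9 untreated, 96.5 and 85.8 in the IAA-treated control, 90.9 and 142.3 under wild-type CTCF, and 205.8 and 240.2 under mutated CTCF. It fell by 1.23 with IAA (adjusted p = 5.6e-09) and was higher with mutated than with wild-type CTCF by 0.96 (adjusted p = 1.5e-06).

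Over the pair of comparisons that share no library, 7 of the 15 list genes (46.7%) were called higher with IAA and lower with mutated than with wild-type CTCF, beside 6.13% of all genes. They were Cdx1, Meis1, Meis2, Nr2f2, Skap2, Tcf7l1 and Tshz1, named here for this count after their values were seen. Without untreated replicate 1 the count was 4 of 15, beside 4.53% of all genes, and without any other library it was 5 to 7. Without the mean-variance trend 4 of the 7 remained, beside 3.09% of all genes; Meis1 was lost with IAA (adjusted p = 0.10), and Tcf7l1 (adjusted p = 0.052) and Tshz1 (adjusted p = 0.058) between the CTCF forms. Meis1 with IAA, at 0.25, was lost without either untreated library or IAA-treated control replicate 2 (0.22 to 0.26; adjusted p from 0.080 to 0.11). Nr2f2 was lost with IAA without untreated replicate 1 or IAA-treated control replicate 1 (0.71 and 0.82; adjusted p = 0.15 and 0.098), and between the CTCF forms without mutated replicate 1 (-0.81; adjusted p = 0.094). Tshz1 between the CTCF forms was -0.27 (adjusted p = 0.038) and fell short at -0.17 (adjusted p = 0.33) without mutated replicate 1. It was also not called without either untreated or either wild-type library (-0.23 to -0.30; adjusted p from 0.054 to 0.15), nor with only the groups compared (adjusted p = 0.078). Tgm2 was called in both comparisons with the opposite signs. The list was assembled with results in view, so this share describes these genes and supports nothing beyond them.

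**Figure D4:**
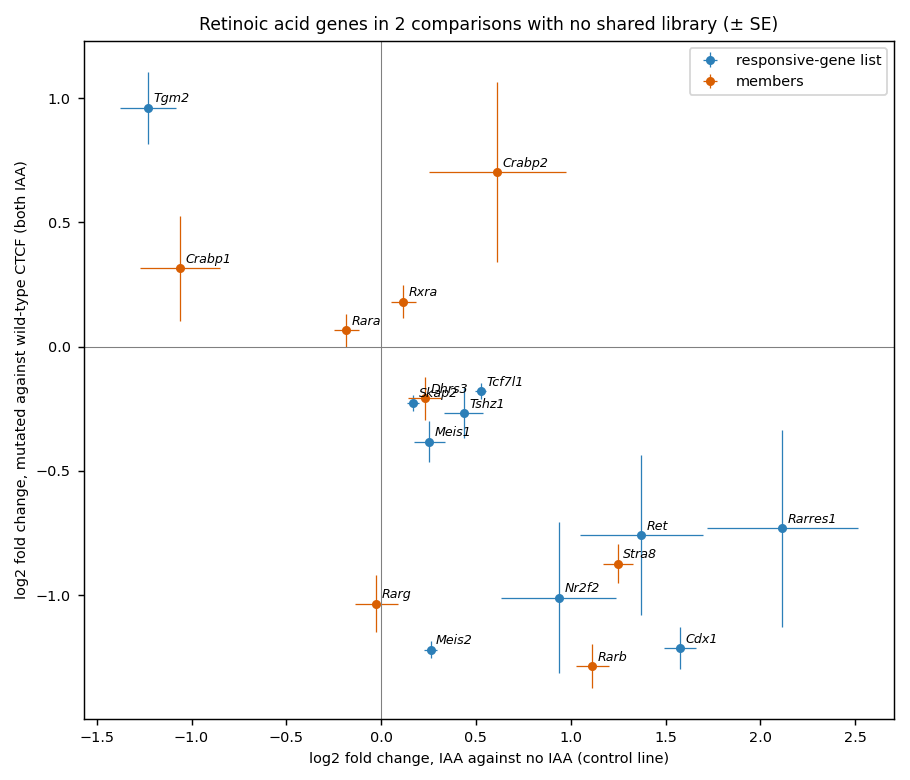
Log2 fold change with IAA in the control line (horizontal axis) against log2 fold change of mutated over wild-type CTCF (vertical axis), with standard errors, for the 8 members (orange) and the 10 genes of the responsive list named in the text (blue). Rarb (1.11, -1.29) and Cdx1 (1.58, -1.21) lay beside Stra8 (1.25, -0.87) in the lower right, and Tgm2 (-1.23, 0.96) lay in the opposite corner.

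Genes that handle vitamin A and its products were counted as a list of uptake and storage and a list of synthesis. Of 7 genes of vitamin A uptake and storage, 5 had rows and 4 were tested. With IAA none of these 4 was called (limma, 1 at an unadjusted p under 0.05), while 37.7% of all genes were called. With mutated CTCF 2 of the 4 were lower than in the IAA-treated control and than with wild-type CTCF (all genes: 12.4% and 18.4% lower). One of them was Stra6, the membrane channel for retinol. Stra6 had counts of 12.5 and 10.3 untreated, 26.2 and 17.6 in the IAA-treated control, 20.98 and 23.5 under wild-type CTCF, and 6.27 and 4.94 under mutated CTCF. With IAA Stra6 gave 0.86, short of the threshold (limma, adjusted p = 0.056), and the groups did not overlap. Mutated against wild-type CTCF gave -1.82 for Stra6 (SE 0.36; adjusted p = 9.9e-05) on 5 to 24 reads per library. Dgat1, which esterifies retinol among other alcohols, was higher in the wild-type CTCF line than in the IAA-treated control, at 0.57 (adjusted p = 0.0043), a call lost without IAA-treated control replicate 2 (0.31; adjusted p = 0.19) or without the trend (adjusted p = 0.089).

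Of 16 genes listed under retinoic acid synthesis, 10 were tested. Rdh12 passed the filter on low values only through its highest group and is left out, so 9 are counted. The list was not split by the direction in which each enzyme works between retinol and retinal. IAA raised 3 and lowered 2 (all genes: 19.4% and 18.4%), and mutated against wild-type CTCF gave 1 higher and 1 lower (all genes: 16.3% and 18.4%), counts from which nothing particular to the list is read. Aldh1a2, the enzyme of the last step in the early embryo, had counts of 24.2 and 21.6 untreated, 50.03 and 70.4 in the IAA-treated control, 79.6 and 78.1 under wild-type CTCF, and 50.2 and 54.4 under mutated CTCF. It rose with IAA by 1.34 (SE 0.21; adjusted p = 1.9e-06), and both CTCF lines remained above the untreated control, at 1.74 (adjusted p = 8.6e-09) and 1.16 (adjusted p = 2.3e-05). Aldh1a2 was lower with mutated than with wild-type CTCF, at -0.58 (adjusted p = 0.027), so it was called in the same directions as Rarb in both comparisons that share no library. The second call was lost without any one of the 4 libraries compared (-0.53 to -0.64; adjusted p from 0.057 to 0.14) and without the trend (adjusted p = 0.057). Its groups stood in another order than those of Stra8, with wild-type CTCF highest. Rdh11 and Dhrs4, which act on retinal and retinol, fell with IAA by 0.60 (adjusted p = 2.1e-09) and by 0.70 (adjusted p = 8.4e-04). The Dhrs4 call was lost without untreated replicate 2 (-0.53; adjusted p = 0.059).

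Of the enzymes of degradation beside Cyp26a1, Cyp26c1 was tested and passed in none of the 6 comparisons, and Cyp26b1 was under the filter. Fabp5, a lipid carrier that can bring retinoic acid to another nuclear receptor, was lower with mutated than with wild-type CTCF, at -0.70 (adjusted p = 0.016). That call was lost without wild-type replicate 2 (-0.64; adjusted p = 0.092) or mutated replicate 1 (-0.51; adjusted p = 0.18), and without the trend (adjusted p = 0.056). Of 13 coregulators of nuclear receptors, IAA raised 9 and lowered none (none also at an unadjusted p under 0.05; all genes: 19.4% and 18.4%), with the largest change in Ncoa1, a coactivator named here after its values were seen (0.45; adjusted p = 2.3e-13). The list's median was 0.21, beside -0.00165 over all genes tested. With mutated CTCF, 8 of the 13 were higher and 1 lower than with wild type (all genes: 16.3% and 18.4%). Standard errors in the list ran from 0.026 (Ncor1) to 0.094 (Hdac3), beside a median of 0.103 over all genes tested. Smaller changes are thus called in it than in most genes. The list was also chosen with earlier results known, so nothing particular to it is read from these counts.

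Genes of meiotic entry, the program that Stra8 serves in germ cells, were called in both directions. Of 18 listed genes 12 were tested, and 11 are counted, since Spo11 passed the filter on low values only through its highest group. IAA raised 2 and lowered 1 (all genes: 19.4% and 18.4%). Against the wild-type form, mutated CTCF gave 4 higher and 2 lower (all genes: 16.3% and 18.4%). With 11 genes, nothing particular to the list is read from these counts. Rec8, a cohesin subunit of meiosis named here after its values were seen, had group means in the order of Stra8, from 52.2 to 63.6, but its groups overlapped and it was called in none of the 6 comparisons. Dazl, an RNA-binding protein of germ cells, had counts of 924.5 and 1051 untreated, 986.3 and 965.7 in the IAA-treated control, 1252 and 1422 under wild-type CTCF, and 660.3 and 677.2 under mutated CTCF. It had the pattern of Rarg, with no call for IAA (-0.01; adjusted p = 0.88), a higher value with wild-type CTCF than in the IAA-treated control (0.45; adjusted p = 5.1e-07) and a lower one with mutated CTCF (-0.54; adjusted p = 6.5e-09).

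Dmc1, the recombinase of meiosis, ran opposite to Dazl over the CTCF forms, with wild-type CTCF at 688.0 and 728.5 and mutated CTCF at 1249 and 1281. Mutated against wild-type CTCF was 0.84 for Dmc1 (adjusted p = 3.7e-15) and 0.66 for Ddx4, an RNA helicase of germ cells (adjusted p = 3.3e-05). Msx2, a homeobox gene, rose with IAA by 0.94 (adjusted p = 3.3e-04). Its counts went from 41.0 and 32.8 to 70.3 and 72.6. Of 11 subunits of the polycomb complex that keeps germ cell genes silent in embryonic stem cells, IAA raised 1 and lowered 2 (all genes: 19.4% and 18.4%), and with mutated CTCF 3 were higher and 2 lower than with wild type (all genes: 16.3% and 18.4%).

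The neighbours of Stra8 on the chromosome followed it only in part. Within 250 kb the table listed Agbl3, Cyren and Wdr91 on one side and Slc23a4 and Cnot4 on the other, all tested. With IAA none of the 5 passed limma's test (1 at an unadjusted p under 0.05), while 37.7% of all genes did. The log2 fold changes of the 5 were -0.37 to 0.05 beside 1.25 for Stra8. For wild-type CTCF against the IAA-treated control none was called either (0 at an unadjusted p under 0.05), beside 31.6% of all genes. The 5 values were -0.09 to -0.05 beside -1.11 for Stra8. With mutated CTCF 4 of 5 were lower than in that control (all genes: 12.4%). Slc23a4, the nearest neighbour at 5.93 kb and a relative of the vitamin C transporters, had counts of 48.8 and 46.2 in the IAA-treated control and 28.2 and 25.7 with mutated CTCF, a difference of -0.80 (SE 0.22; adjusted p = 0.0034).

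Wdr91 and Cnot4, at 9.29 and 82.7 kb, had log2 differences of -0.22 (adjusted p = 0.0068) and -0.21 (adjusted p = 2.4e-06) in the same comparison. Without IAA-treated control replicate 2 the value of Wdr91 was -0.19 (adjusted p = 0.064). Cyren gave -0.64 (adjusted p = 0.033), on 22 to 50 reads per library, and the call was lost without IAA-treated control replicate 1 (-0.51; adjusted p = 0.21) or mutated replicate 1 (-0.52; adjusted p = 0.18). With mutated CTCF 3 of 5 were lower than with wild type (all genes: 18.4%). Among them was Slc23a4 at -0.73 (adjusted p = 0.0076), close to the -0.87 of Stra8. Without the mean-variance trend 1 of 5 was lower, and Cnot4 (-0.14; adjusted p = 0.065) and Cyren were not called. The Cyren call in that comparison, -0.60 (adjusted p = 0.049), was lost in several settings: without wild-type replicate 1, either mutated library or either untreated library (adjusted p from 0.053 to 0.31), with no filter, with only the groups compared and without the trend (adjusted p from 0.051 to 0.079). The differences with IAA and with wild-type CTCF were thus called in none of the neighbours, whereas a smaller negative difference with mutated CTCF was called in 4. With 5 genes, and 37.7% and 31.6% of all genes called in the first 2 comparisons, nothing is read from the counts of none.

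**Figure D5:**
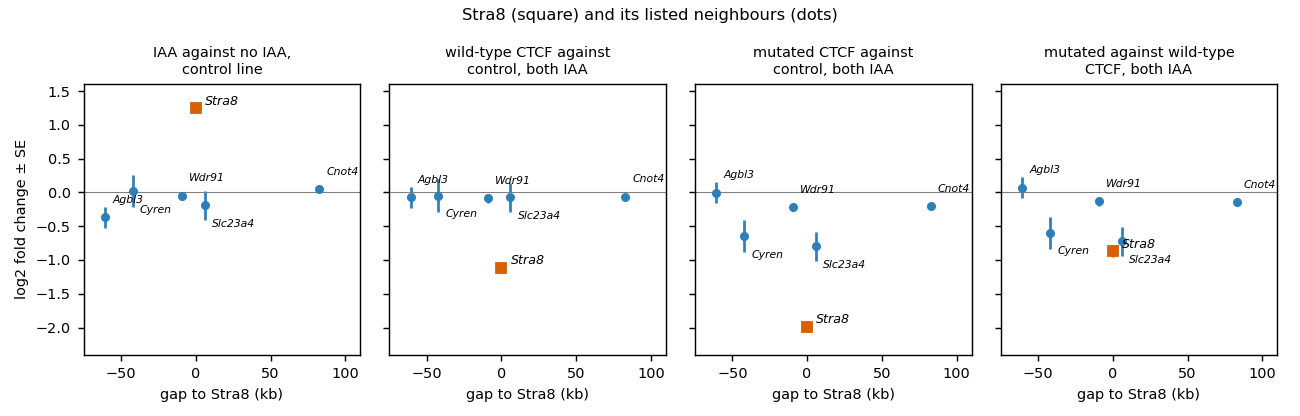
Log2 fold change with its standard error (vertical axis) of Stra8 (orange square) and the 5 listed genes within 250 kb (blue dots) by their gap to Stra8 in kb (horizontal axis), in 4 comparisons. Stra8 stood apart from all neighbours with IAA (1.25 against -0.37 to 0.05), and Slc23a4 came near it for mutated against wild-type CTCF (-0.73 and -0.87).

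The nearest listed genes on both sides of the other members came to 14, of which 11 were tested. Gm9918 beside Rarg passed the filter on low values only through its untreated group (18.7, and 6.83, 10.7 and 12.1 in the IAA-treated control, wild-type and mutated groups), so it is left out of the counts. Of the other 10, IAA raised 2 and lowered 1 (all genes: 19.4% and 18.4%), and with mutated CTCF 1 was higher and 2 were lower than with wild type (all genes: 16.3% and 18.4%).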

How the data were processed

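The authors deposited one table of normalized counts (a signal per gene and library), with no raw counts used here. Per the submitters' processing notes, Trim Galore, STAR, featureCounts, DESeq2 and the build mm10 were involved. Their versions, roles and settings, including strand and annotation release, were not given in the sources used here. From the values, 100% of entries in each library were whole multiples of one step (tolerance 0.01), so each library's counts had been divided by one factor. No UMIs are described, so reads are not independent molecules.

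Values were analysed as log2(value + 1) in limma 3.58.1 (R 4.3.3), with one coefficient per group over the 8 libraries (4 residual degrees of freedom) and a mean-variance trend. The 15818 genes whose mean over libraries reached 10 were tested, with Benjamini-Hochberg adjustment over all of them in each comparison and a threshold of 0.05. SE is the fit's standard error, and SD is between the 2 libraries of a group. The fit was tested on simulated data, and no result of that test is reported or relied on here. Identifiers were matched to GENCODE M21 (16917 of 16940); promoters are RefSeq's. Genes named are all members, at most 4 called genes per list (log2 fold change of 0.5 or more in size), genes within 250 kb of Stra8, and the 5 most like Stra8; exceptions are stated, and some genes that this rule names are not reported here. The members and lists were chosen with earlier results of these data known. The alternatives are the pseudocount, the filter, the scaling, the samples fitted, the trend, a replicate block and leaving out each library.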

Additional observations from a re-analysis of the deposited data

Results flagged for a closer look

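For 4 named genes the lines with wild-type and mutated CTCF lay on opposite sides of the IAA-treated control, each past the threshold, and so was the test of the difference between the lines. The form of CTCF and the line cannot be told apart. Rarg differed by -1.03 (mutated minus wild type, log2; limma, adjusted p = 1.3e-09), Dazl by -0.995 (adjusted p = 5.7e-16) and Meis2 by -1.22 (adjusted p = 6.0e-27). In these 3 genes both libraries of wild-type CTCF were above both of the IAA-treated control, and both of mutated CTCF below them. Dmc1 differed by 0.84 (adjusted p = 3.7e-15), with the mutated CTCF line above the control and the wild-type line below it. The opposite sides of the control rest on the same 2 control libraries in each case. For Rarg, the higher value with wild-type CTCF was not past the threshold without IAA-treated control replicate 1 or wild-type replicate 2. Groups of 2 libraries are too small for a check of single outlying libraries.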

How the results depend on the processing

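Of 744 values of the 7 tested members under alternatives, 676 kept their direction and their side of the threshold. Of the members' 20 calls none reversed and 7 were lost in at least 1 setting; the 6 of Rarb were lost in none. Directions changed only in values that were not called. For wild-type CTCF against the IAA-treated control, median-of-ratios rescaling, with or without the replicate block, gave -0.023 for Rxra and -0.026 for Crabp1, and equal totals gave -0.0017 for Crabp1. For wild-type CTCF against untreated, Dhrs3 gave -0.012 and, with equal totals, -0.040. Leaving out one library gave ranges of -0.19 to 0.14 for Rarg with IAA. For wild-type CTCF against the IAA-treated control the ranges were -0.0021 to 0.19 for Rara, -0.019 to 0.085 for Rxra and -0.092 to 0.15 for Crabp1. They were -0.587 to 0.50 for Crabp2 with mutated CTCF against that control, -0.031 to 0.16 for Rara between the CTCF forms and -0.19 to 0.0080 for Rara with wild-type CTCF against untreated. The members called numbered 2 to 4 with IAA (2 without any one library of that comparison) and 1 to 3 for wild-type CTCF against the IAA-treated control (3 after median-of-ratios rescaling, 1 without IAA-treated control replicate 1 or wild-type replicate 2). Without those of a mean under 50, 7 of the responsive genes were higher with IAA in place of 11, since fewer were tested. Without the mean-variance trend the calls over all genes fell from 5967 to 3946 with IAA, from 4991 to 2379 for wild-type CTCF, from 5433 to 3228 for mutated CTCF, from 5489 to 3263 between the forms and from 5975 to 3869 for mutated CTCF against untreated. Without wild-type replicate 2, wild-type CTCF gave 3274.

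Same-numbered libraries did not deviate together (correlation -0.022 to 0.028 over 6 pairs of groups, mean 0.0037), so the numbers were not taken as pairs. With the replicate block, 4 of 7 members were called with IAA, as without it, and 2 for wild-type CTCF against the IAA-treated control, as without it. It gave 5 in place of 4 for mutated CTCF against that control (Rara added, adjusted p = 0.036), 4 in place of 3 for mutated against wild-type CTCF (Dhrs3 added, adjusted p = 0.042), and 4 in place of 3 for wild-type CTCF against untreated (Rxra added, 0.15; adjusted p = 0.029). The planned count models (edgeR and DESeq2) were not run, since the step of mutated replicate 2 (0.989) is too near 1 to check that whole reads were recovered there. Depth limits Crabp2, with 11 to 28 reads per library.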
